A study of Mus musculus with 30 samples.

Results

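Among 30 mouse mammary tumours, the 10 with the most macrophage transcript and the 10 with the least were compared across all other genes. The members were chosen by a score, the mean over Csf1r, Adgre1, Mrc1, Cd163, Lyz2 and Cd14 of log2(RPKM + 1), each gene standardised over the 30 tumours. RPKM is a read count scaled to transcript length and to the total of the library. The 10 highest of the 30 tumours are called macrophage-rich, the 10 lowest macrophage-poor and the remaining 10 middle. Each tumour came from a different mouse of the ((MOLF x PyMT) x FVB) backcross, and every tumour is labelled as PyMT-induced, that is, driven by the polyoma middle T antigen. The labels name 1 group only, with no untreated or tumour-free tissue, and give no age, sex, litter or promoter for the transgene. Animals of such a backcross can inherit different MOLF alleles, so the tumours can differ in genotype as well. The groups were made from the same libraries in which the other genes were measured. The tests describe which genes varied with the score and not the effect of a treatment. RNA came from whole tumour pieces, so fewer macrophages and less RNA per macrophage cannot be told apart.

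Macrophages depend on CSF1R, the receptor for the growth factors CSF1 and IL-34, and many in tumours derive from blood monocytes that follow CCL2 through CCR2. Others resemble the resident macrophages of the mammary gland and fat pad, which carry scavenger receptors and lectins and clear debris. In PyMT tumours macrophages are best known for an exchange with tumour cells, in which CSF1 from tumour cells is answered by EGF from macrophages and which has been tied to invasion and spread to the lung.

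The score genes are given as a description, because they chose the members. Csf1r ran from 21.8 through a median of 31.2 to 64.3 RPKM in the macrophage-rich tumours and from 8.74 through 18.5 to 23.5 RPKM in the macrophage-poor ones. Adgre1, which encodes the surface protein F4/80, ran from 7.85 through 10.4 to 20.5 against 0.977 through 5.91 to 7.55 RPKM, with no overlap. Mrc1, the mannose receptor, ran from 6.06 through 12.04 to 32.3 against 0.96 through 4.197 to 7.38 RPKM. Neither Cd163 nor Lyz2 separated the groups fully. Cd163, a haemoglobin scavenger receptor, had medians of 5.10 and 2.17 RPKM, and Lyz2, the macrophage lysozyme, had medians of 312 and 164 RPKM. Cd14, the co-receptor for bacterial lipopolysaccharide, had medians of 82.5 and 57.5 RPKM, but its highest value of all, 167 RPKM, was in a middle tumour. Over the 30 tumours Mrc1 had the highest correlation with the mean of the other 5 score genes (Pearson r = 0.93) and Cd14 the lowest (r = 0.37). All 6 markers were above 0 in all 30 tumours, so macrophage-poor means low, not empty.

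**Figure D1:**
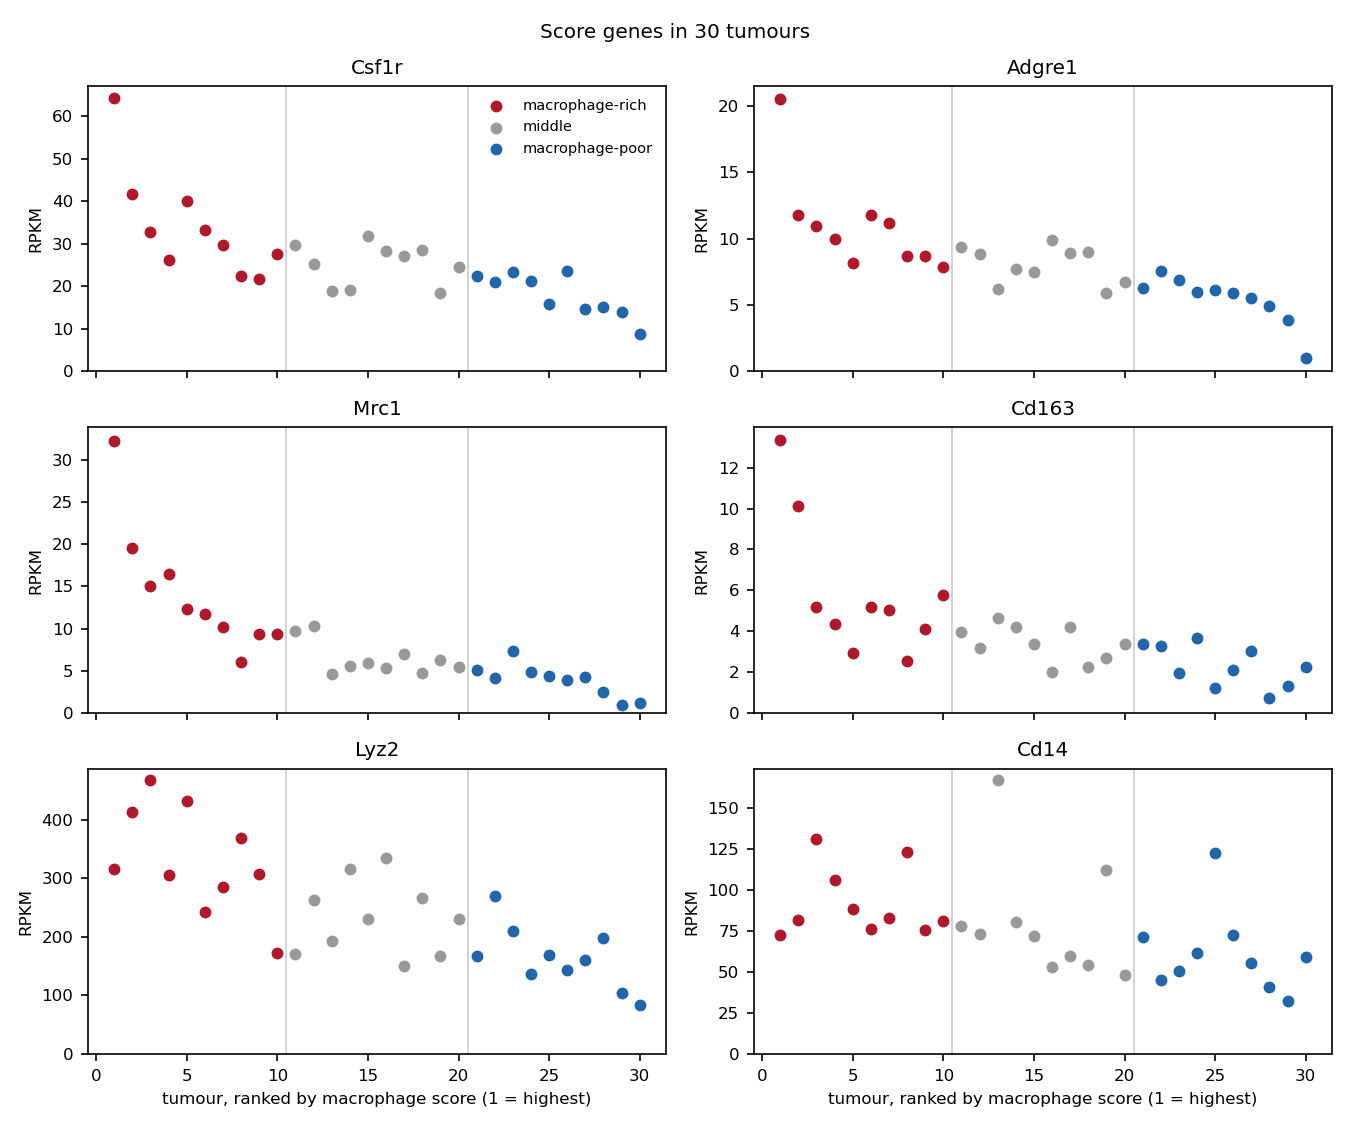
RPKM of the 6 score genes (linear axes from 0) in 30 tumours ranked by macrophage score, 1 point per tumour, coloured by group. Csf1r, Adgre1, Mrc1 and Cd163 peak in the tumour of rank 1, whereas Cd14 is highest in a middle tumour at 167 RPKM.

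The score fell without a break across the cut-offs. The last tumour inside the macrophage-rich group, from animal 4488, scored 0.27 and the next outside, from animal 3871, 0.23. At the other end the last inside, from animal 4020, scored -0.29 and the next outside, from animal 4038, -0.26. The ends were far from the cut-offs: animal 4036 scored 1.83, and animals 4438, 3654 and 4150 scored -1.24, -1.76 and -1.99.

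Sequencing depth, recovered from the steps between low RPKM values, split the series into 14 deep libraries and 16 shallow ones. The deep libraries held about 116900000 to 196500000 reads and the shallow ones about 42700000 to 61900000. The macrophage-rich group held 3 deep and 7 shallow libraries and the macrophage-poor group 5 of each (Fisher's exact test, two-sided p = 0.65). Mean insert size per library, the only technical value in the labels and given there without a unit, averaged 258 ± 14.7 against 244 ± 19.4 (SD, n = 10 each; permutation test, two-sided p = 0.083). Krt18, a keratin of luminal mammary epithelium, lay between 326 and 765 RPKM in the 20 tumours compared, so the labelled epithelial tissue was present in each.

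The macrophage-rich tumours carried more transcript of the Fc receptors Fcgr2b and Fcgr3, of the C1q chains C1qa and C1qb and of the lectins Clec10a and Cd209f. They also held more of decorin, of the vessel receptor Tek and of the fat cell product adipsin, while very few genes were lower. Of 13607 genes tested, 125 were higher in the macrophage-rich tumours (0.919%) and 3 were lower (0.022%) at an adjusted p under 0.05 (limma on log2(RPKM + 1), Benjamini-Hochberg). At an unadjusted p under 0.05 there were 1177 higher (8.65%) and 475 lower (3.49%). Differences below are on that log2 scale with standard errors, n = 10 tumours a group. The 125 genes had a median difference of 0.80, from 0.36 to 2.68. Of these, 27 belong to a gene list used here, and 8 are rows of the single Ugt1a locus, whose transcripts share exons and whose reads the counting could have split. In 8 genes (0.0588% of those tested) every macrophage-rich tumour lay above every macrophage-poor one, among them Fcgr2b, P2ry6, Cd300ld, Nxpe5, Vegfd, C3ar1 and Scara3, and in 0 genes the reverse held.

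Leaving out 1 tumour often moved the count of 125. It came to 6 when animal 4357 was left out, to 7 without 3654, 8 without 4438, 11 without 4036, 12 without 3273 or without 4142, 13 without 4150, 32 without 4461, 49 without 4030, 62 without 3939, 66 without 3427, 77 without 4492, 198 without 4016, and 255 without 4378 or without 4638. With insert size as a covariate 6 genes remained, among them Fcgr2b, P2ry6, Cd300ld, Nxpe5 and Trem2. Within the 8 deep libraries 0 genes passed in either direction, with 539 higher and 334 lower at an unadjusted p under 0.05. Within the 12 shallow ones 4 were higher, namely Atp6v1b1, Cd59a, Mmp3 and Thbs4, and 0 lower, with 1030 and 309 at an unadjusted p under 0.05.

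**Figure D2:**
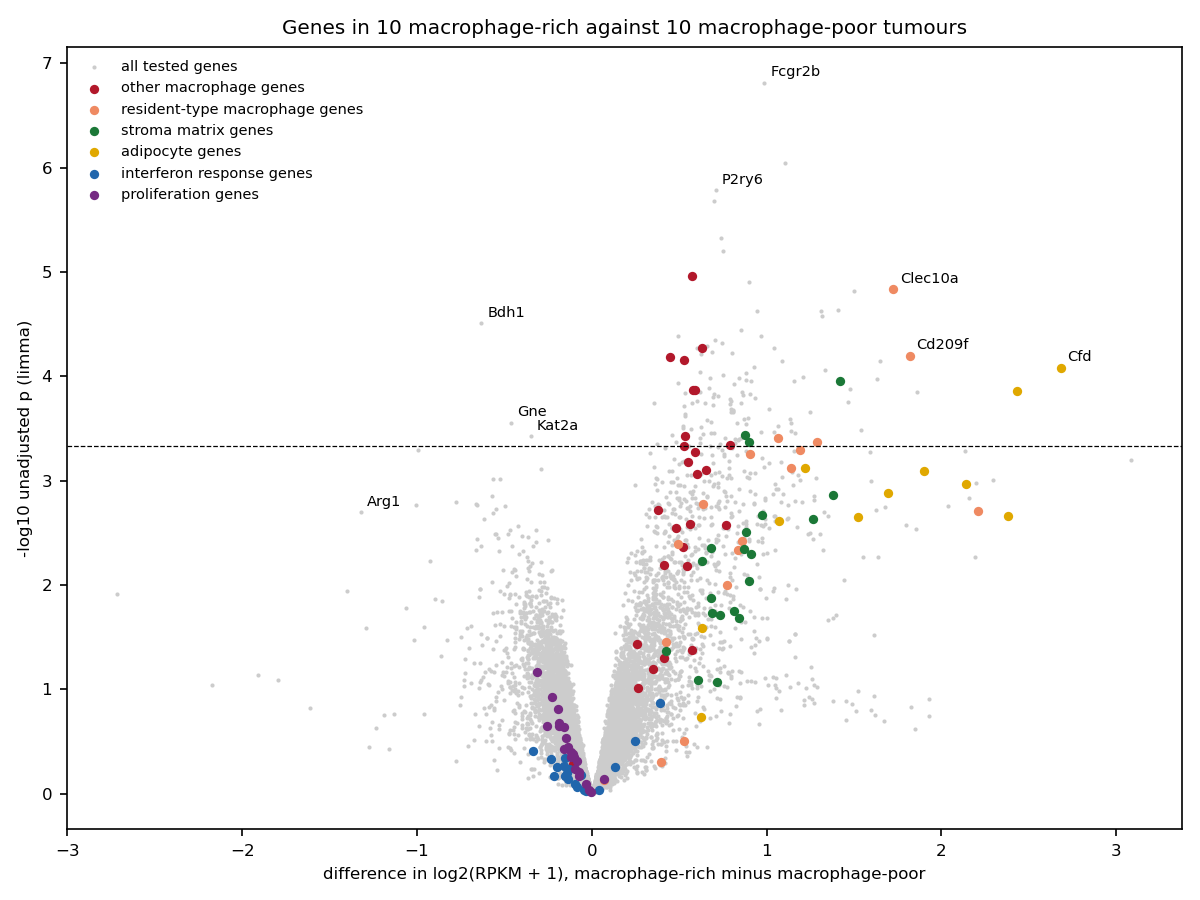
Difference in log2(RPKM + 1), macrophage-rich minus macrophage-poor (x axis), against -log10 of the unadjusted limma p (y axis) for 13607 genes, with 6 gene lists coloured; genes above the dashed line have an adjusted p under 0.05. The line is crossed by 125 genes on the right and by Bdh1, Gne and Kat2a on the left.

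Fcgr2b, the inhibitory Fc receptor for IgG, had the smallest p of all genes. It ran from 14.5 through 20.04 to 30.4 RPKM in the macrophage-rich tumours and from 7.06 through 10.2 to 13.2 RPKM in the macrophage-poor ones. All 10 macrophage-rich tumours were above the highest macrophage-poor tumour, and the difference was 0.98 ± 0.13 (adjusted p = 0.0021). Its activating neighbour on chromosome 1, Fcgr3, ran from 12.5 through 19.4 to 28.01 against 8.26 through 10.9 to 15.02 RPKM. Here 8 of the 10 macrophage-rich tumours lay above all macrophage-poor ones (0.75 ± 0.13, adjusted p = 0.014).

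The next genes were receptors of lower level. P2ry6, a receptor for the nucleotide UDP, ran from 4.86 through 5.97 to 7.58 against 2.39 through 3.42 to 4.81 RPKM (0.71 ± 0.11, adjusted p = 0.0071). Cd300ld, an activating receptor of myeloid cells, ran from 1.42 through 2.22 to 3.56 against 0.512 through 1.02 to 1.26 RPKM (0.70 ± 0.11, adjusted p = 0.0071). Nxpe5, of unclear function, ran from 2.25 through 3.31 to 5.62 against 0.978 through 1.64 to 2.21 RPKM (0.74 ± 0.12, adjusted p = 0.013). The groups did not overlap in any of these 3 genes.

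A further 6 genes outside the lists were among the 12 with the smallest adjusted p, and several are not macrophage genes by their known roles. Cd209d, a C-type lectin, had medians of 4.34 and 1.40 RPKM (1.503 ± 0.27, adjusted p = 0.021). Serping1, the inhibitor of the complement protease C1, had medians of 46.6 and 22.2 RPKM (1.32 ± 0.25, adjusted p = 0.026). Selp, the P-selectin with which vessel walls catch leukocytes, had medians of 2.14 and 0.819 RPKM (0.90 ± 0.16). Sfrp4, a secreted Wnt antagonist made by fibroblasts, had medians of 3.61 and 0.727 RPKM (1.41 ± 0.26). For Abca1, which exports cholesterol from cells, the medians were 22.1 and 13.9 RPKM (0.85 ± 0.16), and for Ifi205, an interferon-inducible gene, 6.92 and 2.76 RPKM (1.31 ± 0.24). In each of these 6 genes at least 8 macrophage-rich tumours were above all macrophage-poor ones. Ifi205 and the Cd209 and Cd300 genes have close relatives in the mouse genome, so how reads were shared among copies is uncertain.

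Upstream sequences of genes that varied together are shown here for the letters GAGGAA, the core that the macrophage factor PU.1 (product of Spi1) can bind. RefSeq upstream sequence (GRCm38.p6) was matched for 98 of the 125 higher genes. The letters stood on either strand within 250 bases upstream of the start in 35 of those 98 (35.7%), against 2820 of 10815 tested genes (26.1%) and 23.3% of all 32851 windows of that length. Each printed run is the 150 bases just before the start, 5′ to 3′ on the gene's strand, and capitals mark GAGGAA or its reverse complement. C1qb and Cd209d each hold 1 match, and Fcgr2b and Cd209f, with the smallest p and the largest called lectin difference, hold none.
Fcgr2b, chr1:170976072-170976221, minus strand: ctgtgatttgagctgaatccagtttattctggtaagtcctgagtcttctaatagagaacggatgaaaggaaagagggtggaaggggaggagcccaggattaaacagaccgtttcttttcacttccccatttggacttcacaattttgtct
C1qb, chr4:136886201-136886350, minus strand: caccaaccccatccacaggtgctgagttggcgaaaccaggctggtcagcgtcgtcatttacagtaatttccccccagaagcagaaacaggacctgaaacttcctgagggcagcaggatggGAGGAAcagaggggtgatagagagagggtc
Cd209d, chr8:3878500-3878649, minus strand: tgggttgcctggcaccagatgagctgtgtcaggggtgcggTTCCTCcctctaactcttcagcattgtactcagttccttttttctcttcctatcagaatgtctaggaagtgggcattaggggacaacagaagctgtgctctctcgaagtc
Cd209f, chr8:4105765-4105914, minus strand: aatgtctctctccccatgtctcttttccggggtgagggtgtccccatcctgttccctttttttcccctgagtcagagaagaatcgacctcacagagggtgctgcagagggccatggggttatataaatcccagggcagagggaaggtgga
These letters come from the C57BL/6J reference, not from MOLF or FVB, and a match is a description of the sequence alone.

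Among 26 other macrophage genes, which took no part in the score, 9 rose and 0 fell. Their median difference was 0.54, against -0.00 over all genes. For this list and those below, the shares over all tested genes were 0.919% higher and 0.022% lower. At an unadjusted p under 0.05 they were 8.65% and 3.49%, and 6644 of all 13607 genes had a difference above 0. The 9 were C1qa, C1qb, Mpeg1, Ctss, Tyrobp, Fcer1g, Cd84, Lgmn and Maf. C1qb, a chain of the complement recognition protein C1q, ran from 62.8 through 77.1 to 99.8 against 31.5 through 51.7 to 74.8 RPKM (0.63 ± 0.13, adjusted p = 0.031). C1qa rose by 0.53 ± 0.13 and C1qc stood at 0.59 ± 0.15 with an adjusted p of 0.052, so the 3 chains, encoded side by side on chromosome 4, lay on either side of the threshold with like differences. Mpeg1, a pore-forming protein of phagocytes, ran from 22.6 through 30.2 to 47.6 against 12.3 through 20.8 to 25.6 RPKM (0.58 ± 0.12, adjusted p = 0.034). The lysosomal protease gene Ctss, which helps trim antigens, had medians of 119 and 80.1 RPKM (0.45 ± 0.09), and Lgmn, another lysosomal protease, 90.4 and 62.7 RPKM (0.59 ± 0.13).

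Signalling partners of myeloid receptors moved by like amounts. Tyrobp, the adaptor DAP12, had medians of 58.8 and 40.3 RPKM (0.53 ± 0.11, adjusted p = 0.031), and Fcer1g, the common Fc receptor gamma chain, 43.7 and 33.0 RPKM (0.53 ± 0.13, adjusted p = 0.0496). Cd84, a receptor of the SLAM family, rose by 0.57 ± 0.10 (adjusted p = 0.021) and the transcription factor Maf by 0.79 ± 0.19 (adjusted p = 0.0496). Spi1, the gene of PU.1, stood at 0.55 ± 0.14 with an adjusted p of 0.058. Cybb, the NADPH oxidase subunit, at 0.66 ± 0.17, and Laptm5, a lysosomal protein of blood cells, at 0.77 ± 0.23, did not pass either. Aif1, often used as the stain IBA1, was the single member with a negative difference, at -0.11 ± 0.16. It ran from 21.3 through 32.7 to 42.1 RPKM in the macrophage-rich group and from 19.6 through 34.8 to 56.4 in the other, with wide overlap.

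Genes of resident-type macrophages, such as scavenging lectins, were higher in part. Of 17 tested members of a list of 20, 4 rose and 0 fell, with a median of 0.86 and all 17 differences above 0. The median was 0.45 without the 4 tumours of highest adipocyte score, the mean of standardised adipocyte genes. Those 4 tumours also ranked 1, 2, 3 and 5 by macrophage score, so leaving them out lowers the macrophage contrast too. Clec10a, a galactose-binding lectin, ran from 6.29 through 12.2 to 48.8 against 1.84 through 4.34 to 6.83 RPKM (1.73 ± 0.31, adjusted p = 0.021). Cd209f ran from 5.60 through 12.3 to 51.4 against 0.87 through 4.11 to 7.18 RPKM (1.82 ± 0.37, adjusted p = 0.031). In both lectin genes 8 macrophage-rich tumours were above all macrophage-poor ones, and the tumour of animal 4036 was the highest. Ccl8, a chemokine made by such cells, had medians of 37.2 and 19.5 RPKM (1.29 ± 0.31, adjusted p = 0.049). Lyve1, a hyaluronan receptor that lymphatic vessels also make, had medians of 3.05 and 0.757 RPKM (1.07 ± 0.26, adjusted p = 0.047).

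Several resident-type genes with large differences did not pass, and their values were widely spread among tumours. Retnla, a secreted product of alternatively activated macrophages that fat tissue also makes, ran from 3.28 through 21.2 to 199 against 0.663 through 4.33 to 16.1 RPKM (2.21 ± 0.63, adjusted p = 0.087). Mgl2, the lectin next to Clec10a, stood at 1.19 ± 0.29, the chemokine Pf4 at 1.14 ± 0.29, and the growth factor Igf1 at 0.91 ± 0.22, with adjusted p from 0.052 to 0.063. Folr2, a folate receptor of resident macrophages, stood at 0.63 ± 0.18 (adjusted p = 0.084).

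Activation and lipid-handling genes did not move one way. Of 18 tested members of 24, 1 rose and 0 fell, with a median of 0.35. The 1 was Trem2, a lipid-sensing receptor that signals through Tyrobp, which ran from 11.3 through 13.8 to 24.6 against 7.21 through 9.77 to 13.02 RPKM (0.52 ± 0.12, adjusted p = 0.044). Arg1, the arginase of alternatively activated macrophages, ran from 11.2 through 41.7 to 116 RPKM in the macrophage-rich tumours and from 45.5 through 129 to 321 in the macrophage-poor ones. That difference, -1.32 ± 0.38, was the most negative of the list (adjusted p = 0.089), and 6 macrophage-poor tumours were above every macrophage-rich one. Spp1, osteopontin, was abundant in both, from 933 through 2520 to 4641 and from 602 through 1986 to 4698 RPKM, and the groups overlapped almost wholly (0.40 ± 0.38). Nos2, the inducible nitric oxide synthase, differed by 0.21 ± 0.15, Il1b by 0.35 ± 0.20 and Tnf by -0.21 ± 0.19, none near the threshold.

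The lipid genes of that list split. Apoe, the lipid carrier, ran from 523 through 646 to 1026 against 242 through 435 to 661 RPKM (0.66 ± 0.18, adjusted p = 0.081). Gpnmb, a glycoprotein of lipid-laden macrophages, stood at 1.33 ± 0.38 (adjusted p = 0.089). Cd36 and Lpl, which take up fatty acids, stood at 2.14 ± 0.52 and 1.62 ± 0.46, and Fabp4, a fatty acid carrier of fat cells and macrophages, at 2.20 ± 0.58, with adjusted p from 0.052 to 0.087. Adipocytes express all 3. Fabp5, the carrier that epithelia also make, stood at -0.63 ± 0.28 (adjusted p = 0.38).

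**Figure D3:**
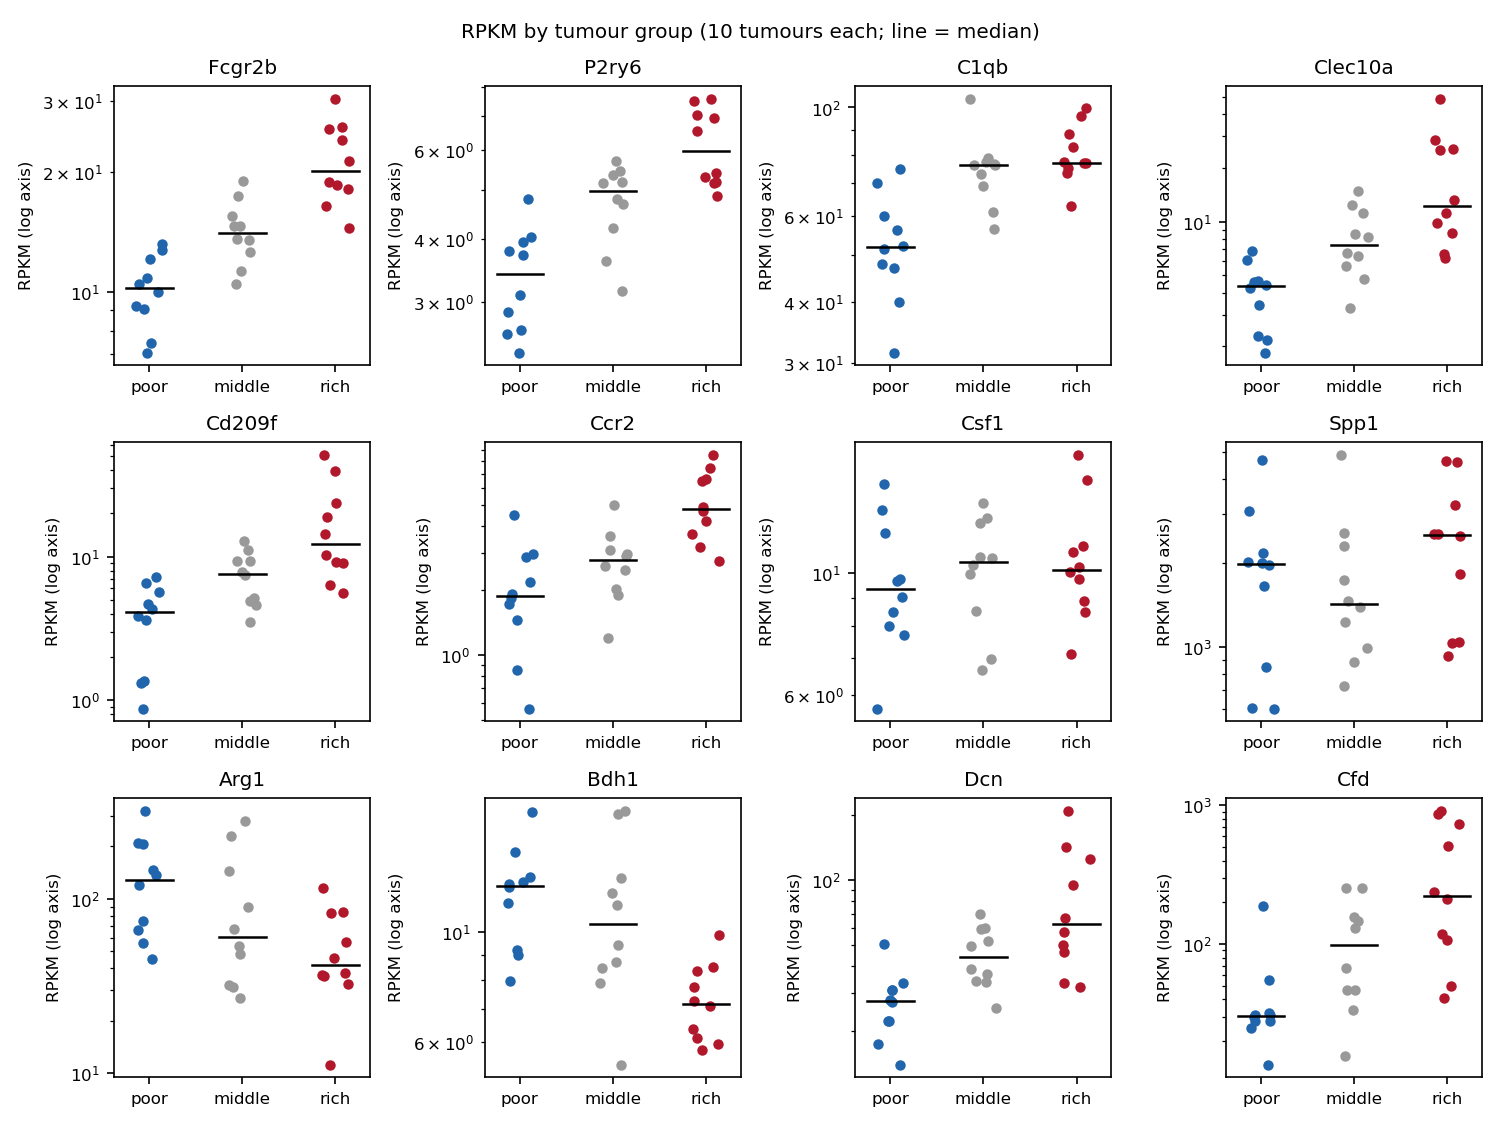
RPKM on log axes in the macrophage-poor, middle and macrophage-rich tumours (10 each; points are tumours, lines are medians) for 12 genes named in the text. Fcgr2b and P2ry6 separate the outer groups without overlap, Csf1 and Spp1 overlap almost wholly, and Arg1 and Bdh1 run the other way.

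Neither ligand of the CSF1 receptor passed the test. Csf1 ran from 7.12 through 10.1 to 16.5 RPKM in the macrophage-rich and from 5.66 through 9.36 to 14.5 RPKM in the macrophage-poor tumours (0.14 ± 0.15, adjusted p = 0.73), and its difference was -0.10 with the adipocyte score as a covariate. Il34, the second ligand, ran from 3.95 through 5.65 to 8.12 against 2.33 through 4.46 to 6.83 RPKM (0.33 ± 0.13, adjusted p = 0.29). Of the 7 tested members of this axis, 1 rose and 0 fell, with a median of 0.33. The 1 was Csf2rb2, a receptor chain for IL-3, at 0.76 ± 0.18 (adjusted p = 0.047), and its near-identical neighbour Csf2rb stood at 0.66 ± 0.22 (adjusted p = 0.16), with reads of the pair hard to assign. Csf2ra, the GM-CSF receptor alpha chain, stood at 0.10 ± 0.17 and Csf3, the granulocyte factor G-CSF, at -0.34 ± 0.32.

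Most chemokine ligands had differences above 0, but few passed. Of 13 ligands 3 rose and 0 fell, with a median of 0.42, 11 differences above 0 and 2 below. At an unadjusted p under 0.05, 9 were higher and 1 was lower. Ccl6 ran from 7.77 through 19.99 to 44.1 against 4.04 through 8.49 to 14.3 RPKM (1.25 ± 0.28, adjusted p = 0.037). Ccl11, eotaxin, had medians of 5.34 and 2.53 RPKM (0.93 ± 0.19, adjusted p = 0.033), and Cxcl16, the ligand of CXCR6, 15.1 and 12.03 RPKM (0.37 ± 0.09, adjusted p = 0.049). Ccl2, the main attractant of CCR2-bearing monocytes, had medians of 3.69 and 2.38 RPKM, but its highest value of the 20 tumours, 8.82 RPKM, was in the macrophage-poor tumour of animal 4378 (0.39 ± 0.19, adjusted p = 0.42). Ccl9 stood at 0.72 ± 0.18 (adjusted p = 0.051), the stromal chemokine Cxcl12 at 0.99 ± 0.37 (adjusted p = 0.25), and Ccl4 at -0.36 ± 0.16 (adjusted p = 0.37).

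Of 6 tested chemokine receptors of 9, 1 rose and 0 fell, with a median of 0.40. It was Ccr2, which ran from 2.75 through 4.77 to 8.57 against 0.562 through 1.89 to 4.51 RPKM (1.04 ± 0.21, adjusted p = 0.031).

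Other leukocyte lists were mixed. Of 7 tested monocyte genes 0 passed, with a median of 0.75 (0.29 without the 4 tumours of highest adipocyte score), and Fn1, fibronectin, which fibroblasts also make, stood at 1.12 ± 0.32 (adjusted p = 0.092) and S100a4 at 0.97 ± 0.24 (adjusted p = 0.056). Among 4 tested dendritic cell genes 1 rose, Cd209a, with medians of 2.31 and 0.585 RPKM (0.95 ± 0.18, adjusted p = 0.025), and the list's median was 0.45. MHC class II genes, which present antigen, gave 0 calls among 8, though 7 had an unadjusted p under 0.05 and the median was 0.63 (0.41 without those 4 tumours). H2-Aa ran from 93.0 through 159 to 272 against 29.02 through 66.1 to 208 RPKM (1.08 ± 0.30, adjusted p = 0.084). H2-Ab1 stood at 1.05 ± 0.28 and the invariant chain Cd74 at 0.98 ± 0.31, with adjusted p of 0.071 and 0.15.

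Mast cell genes gave 0 calls among 6 with a median of 1.18 (0.45 without the 4 tumours of highest adipocyte score), and Mcpt4, a mast cell protease, stood at 1.35 ± 0.39 (adjusted p = 0.092). Neutrophil genes gave 0 calls among 6 with a median of -0.20, S100a8 standing at -0.64 ± 0.37 (adjusted p = 0.50). T and NK cell genes gave 0 calls among 8 (median -0.04) and B cell genes 0 among 6 (median 0.01). Lck, a T cell kinase, stood at -0.28 ± 0.20 and Cd79a, a chain of the B cell receptor complex, at -0.12 ± 0.42. Among 19 interferon response genes 0 passed in either direction, with a median of -0.13, although the interferon-inducible Ifi205 rose. Of 20 lysosome and phagocytosis genes 1 rose, with a median of 0.28. It was Ctsb, cathepsin B, which ran from 190 through 236 to 277 against 134 through 174 to 206 RPKM (0.50 ± 0.10, adjusted p = 0.031), whereas Lipa, the acid lipase, stood at 0.58 ± 0.20 and Ctsz at -0.15 ± 0.12.

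**Figure D4:**
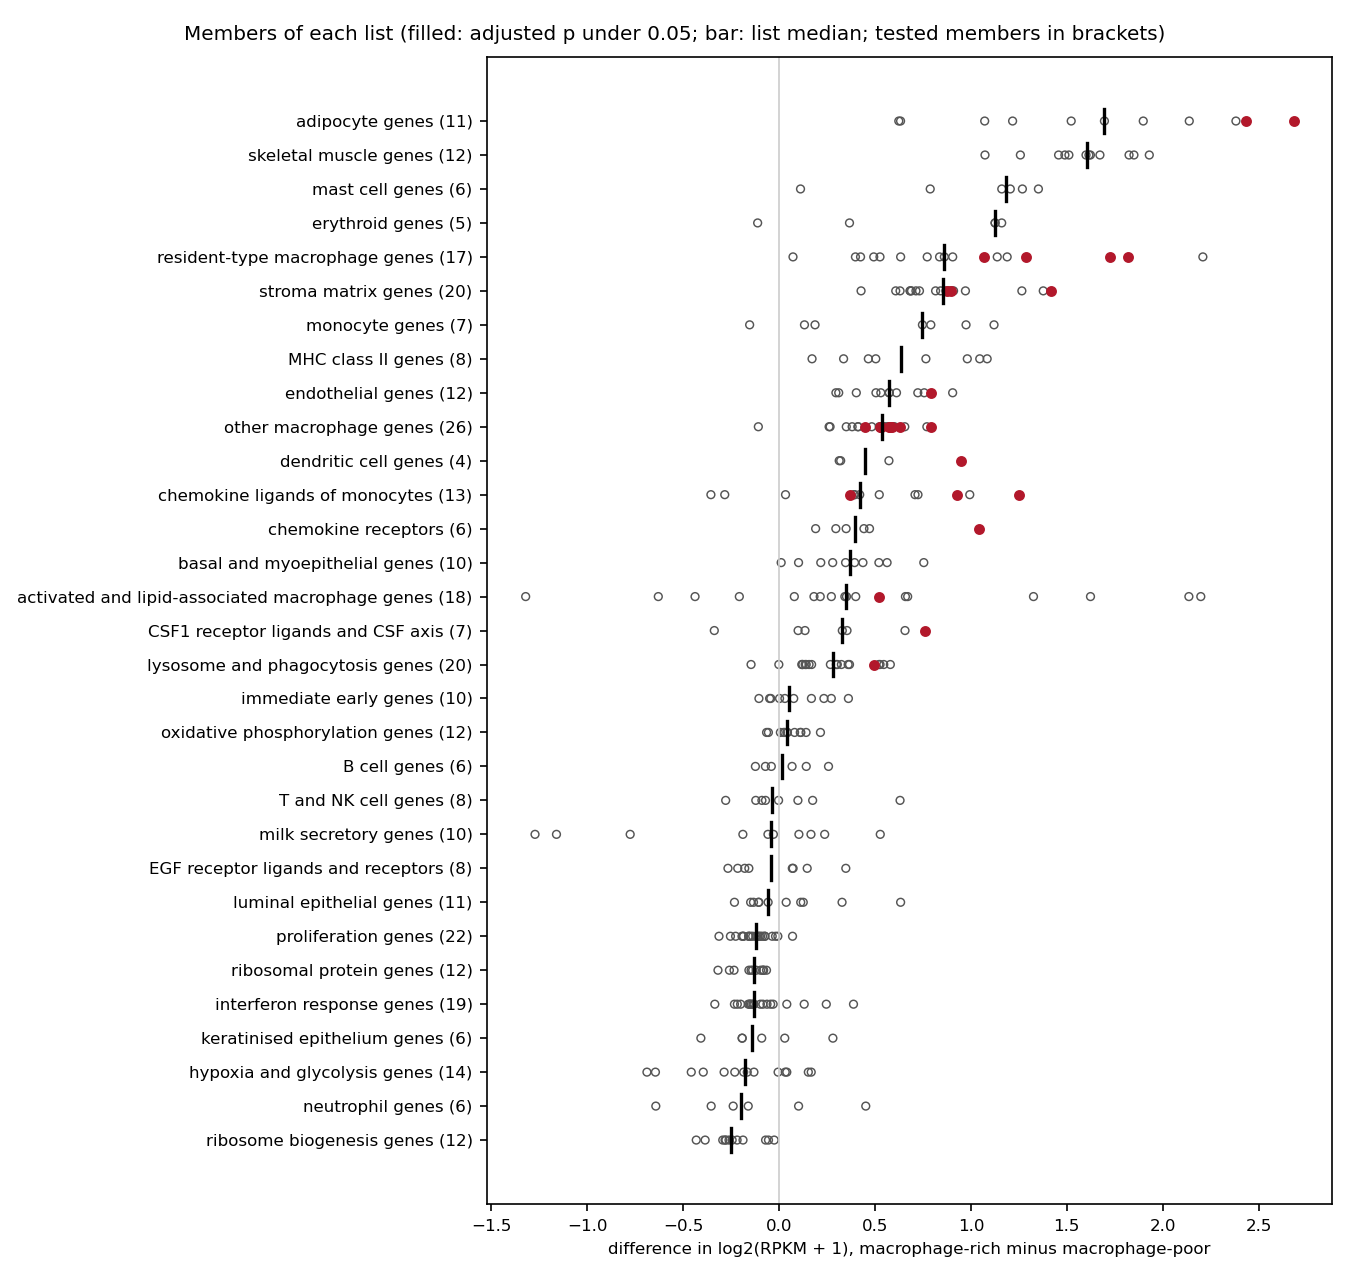
Difference in log2(RPKM + 1), macrophage-rich minus macrophage-poor, of every tested member of 31 gene lists (circles; filled where the adjusted p is under 0.05), with each list's median as a bar and its number of tested members in brackets. Adipocyte genes have the highest median, 1.696, and ribosome biogenesis genes the lowest, -0.25.

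The 3 genes that fell are not known as macrophage genes. Bdh1, which makes the ketone body hydroxybutyrate, ran from 5.78 through 7.16 to 9.88 RPKM in the macrophage-rich and from 7.99 through 12.4 to 17.5 RPKM in the macrophage-poor tumours. Thus 7 macrophage-poor tumours were above every macrophage-rich one (-0.63 ± 0.12, adjusted p = 0.028). Gne, the first enzyme of sialic acid synthesis, had medians of 47.3 and 60.3 RPKM (-0.46 ± 0.11, adjusted p = 0.042), and Kat2a, a histone acetyltransferase, 34.6 and 44.9 RPKM (-0.35 ± 0.08, adjusted p = 0.046). Atp1b1, a sodium pump subunit of epithelia, stood at -0.99 ± 0.24 (adjusted p = 0.052) and Tpd52, a gene often raised in breast tumours, at -0.29 ± 0.07 (adjusted p = 0.065).

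No list of tumour cell programmes held a called gene. Luminal epithelial genes had a median of -0.06 over 11 tested members, basal and myoepithelial genes 0.37 over 10, milk secretory genes -0.04 over 10 and keratinised epithelium genes -0.14 over 6. Krt19, a luminal keratin, stood at 0.63 ± 0.25 (adjusted p = 0.29). Proliferation genes had a median of -0.12 over 22, with Birc5, survivin, at -0.31 ± 0.16 (adjusted p = 0.46). Hypoxia and glycolysis genes had a median of -0.18 over 14, oxidative phosphorylation genes 0.04 over 12 and immediate early genes 0.05 over 10. Ribosomal protein genes were at -0.13 over 12 and ribosome biogenesis genes at -0.25 over 12, of which 5 had an unadjusted p under 0.05. Npm1, nucleophosmin, stood at -0.39 ± 0.19. Myc, which drives ribosome production, had medians of 26.1 and 35.9 RPKM, with 5 macrophage-poor tumours above every macrophage-rich one (-0.43 ± 0.15, adjusted p = 0.19). For the EGF family, 0 of 8 tested ligands and receptors passed, with a median of -0.04, and Egfr stood at 0.15 ± 0.17.

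Genes of connective tissue, vessels and fat were among those that rose. Of 20 stroma matrix genes 3 rose and 0 fell, with a median of 0.86 and all 20 above 0. Dcn, decorin, ran from 32.0 through 62.3 to 210 against 13.9 through 27.4 to 50.5 RPKM (1.42 ± 0.30, adjusted p = 0.033). Pdgfra, the PDGF receptor chain of fibroblasts, rose by 0.88 ± 0.21 (adjusted p = 0.046) and Fap, a protease of activated fibroblasts, by 0.90 ± 0.22 (adjusted p = 0.049). Col1a1, the main collagen chain, ran from 224 through 357 to 1718 against 80.6 through 264 to 497 RPKM and did not pass (0.61 ± 0.33, adjusted p = 0.48). Among 12 endothelial genes 1 rose, with a median of 0.57 and 12 at an unadjusted p under 0.05. It was Tek, the receptor TIE2, which some macrophages also carry (0.79 ± 0.18, adjusted p = 0.035), and Vwf, von Willebrand factor, stood at 0.90 ± 0.22 (adjusted p = 0.053).

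Adipocyte genes had the highest median of the lists. Of 11 tested adipocyte genes 2 rose and 0 fell, with a median of 1.696. Cfd, the complement protease adipsin, ran from 40.7 through 223 to 915 against 13.5 through 30.5 to 187 RPKM (2.68 ± 0.56, adjusted p = 0.033), and Adipoq, adiponectin, from 3.26 through 17.2 to 126 against 1.43 through 2.36 to 11.4 RPKM (2.44 ± 0.53, adjusted p = 0.034). In both genes 6 macrophage-rich tumours were above all macrophage-poor ones. Skeletal muscle genes gave 0 calls among 12 with a median of 1.61, and Acta1, the muscle actin, ran from 0.551 through 89.8 to 4653 against 0.814 through 32.8 to 948 RPKM (1.85 ± 1.53). Erythroid genes gave 0 calls among 5 with a median of 1.13.

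A stroma score and an adipocyte score, each the mean of standardised list members, were set beside the macrophage score. The stroma score ran from -0.38 through 0.38 to 2.83 in the macrophage-rich and from -2.25 through -0.44 to 0.52 in the macrophage-poor tumours. The adipocyte score ran from -0.68 through 0.49 to 2.40 and from -1.01 through -0.76 to 0.20, with 6 macrophage-rich tumours above all macrophage-poor ones. Over the 30 tumours, which share 1 RPKM scale, Pearson r with the macrophage score was 0.82 for stroma and 0.68 for adipocytes. Within the 10 middle tumours it was 0.15 and -0.38. With either score as a covariate 0 genes passed in either direction between the groups. At an unadjusted p under 0.05 there were then 249 higher and 108 lower genes with the stroma score, and 271 higher and 130 lower with the adipocyte score. The 4 tumours of highest adipocyte score, all macrophage-rich, came from animals 4036, 3273, 4357 and 4142. They ranked 1, 2, 3 and 5 by macrophage score. Leaving them out therefore lowers the macrophage contrast along with the adipocyte score, and the part of each cannot be told apart. Without these 4 tumours 0 genes passed, with 469 higher and 143 lower at an unadjusted p under 0.05. List medians were then 0.39 in place of 0.54 for other macrophage genes, 0.45 in place of 0.86 for resident-type genes, 0.29 in place of 0.75 for monocyte genes, 0.45 in place of 1.18 for mast cell genes and 0.41 in place of 0.63 for MHC class II genes. For stroma matrix genes the median was 0.52 in place of 0.86, for endothelial genes 0.35 in place of 0.57 and for skeletal muscle genes 0.37 in place of 1.61. For adipocyte genes, whose own score picked the tumours left out, it was 0.60 in place of 1.696. Ribosome biogenesis genes stood at -0.12 in place of -0.25 and ribosomal protein genes at -0.04 in place of -0.13, and the median of proliferation genes changed sign, from -0.12 to 0.02. The part of fat and connective tissue in the macrophage differences was not tested beyond these values.

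**Figure D5:**
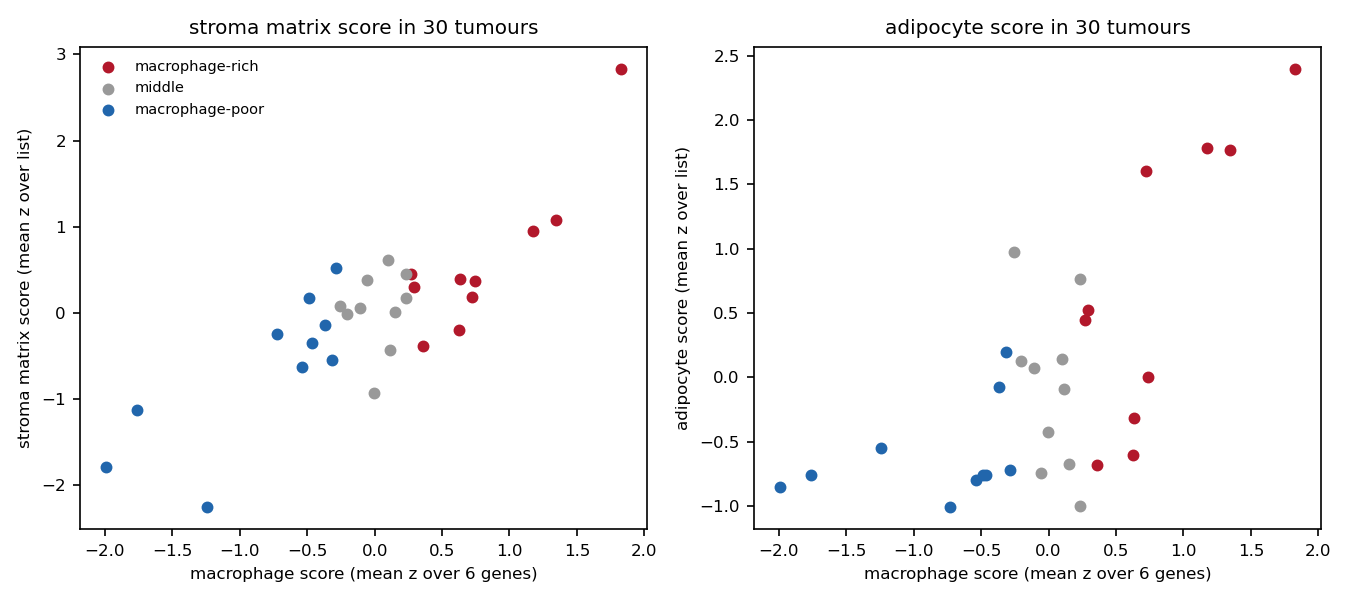
Stroma matrix score (left) and adipocyte score (right), each a mean of standardised list members, against the macrophage score in 30 tumours coloured by group. The tumour at the far right, from animal 4036, is highest on all 3 scores, and the 3 tumours of lowest macrophage score are the 3 of lowest stroma score.

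With the score as a continuous variable over all 30 tumours, 1340 genes rose with it (9.85%) and 1186 fell (8.72%) at an adjusted p under 0.05. Of the 125 genes 124 were among the former. On this scale 22 of 26 other macrophage genes rose, 13 of 17 resident-type genes, 7 of 8 MHC class II genes, 12 of 12 endothelial genes and all 20 stroma genes, while 8 of 12 ribosome biogenesis genes and 5 of 12 ribosomal protein genes fell. Fcgr2b rose by 0.44 ± 0.04 in log2(RPKM + 1) per standard deviation of the score over the 30 tumours, the unit of all slopes given here. When the adipocyte score was added as a covariate, 492 genes rose (3.62%) and 268 fell (1.97%). Among the risers were 10 other macrophage genes and 5 resident-type genes. Adipocyte genes gave 0, which was fixed in advance because the covariate is the mean of these same genes. With the stroma score in its place 9 rose (0.0661%), namely Cd300a, Ctsb, Fcgr2b, Fcgr3, Gpr35, P2ry6, Sirpa, Slc13a3 and Tbxas1, and 2 fell (0.0147%), Heatr6 and Mien1. The slope of Fcgr2b was then 0.45 ± 0.07 (adjusted p = 0.0028) and that of Cd209f 0.61 with an adjusted p of 0.069. In contrast with these counts over 30, the count over the 28 tumours left without the highest and the lowest was 595 rising and 133 falling.

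The 10 middle tumours took no part in the grouping and spanned a narrow range of the score, from -0.26 to 0.23. In them 0 genes rose and 0 fell with the score at an adjusted p under 0.05 (limma), with 106 rising and 187 falling at an unadjusted p under 0.05. The slope was above 0 for 76 of the 125 genes (60.8%), against 45.2% of all genes tested. It was above 0 for 15 of 26 other macrophage genes, 11 of 17 resident-type genes, 17 of 20 stroma genes, 2 of 8 MHC class II genes and 0 of 11 adipocyte genes.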

How the data were processed

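Poly-A RNA of 30 tumours was sequenced, 1 library per mouse, and the authors deposited 1 table of RPKM values per transcript, a unit read from the values because no header names it. CASAVA 1.7.0 is named in the submitters' processing notes, while no source used here gives the aligner, genome build or strandedness. The grouping, the 6 score genes, the 31 gene lists and the tests were chosen with earlier results of these data known, so no list is independent evidence.

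Of 27902 transcripts, 26490 were named with RefSeq (GRCm38.p6) and 154 with GENCODE vM21, 1258 had no name, and 692 small RNA rows were left out. The transcript with the highest mean stood for each of 20849 genes. The test covered 13607 genes averaging 1 RPKM or more across all tumours, the score genes left aside, and ran on log2(RPKM + 1) with limma 3.58.1 in R 4.3.3 (empirical Bayes with trend, two-sided, Benjamini-Hochberg, threshold 0.05). The pseudocount of 1 understates differences of low genes. On simulated data over the same 13607 genes, 49% of genes changed by 0.5 and 89% of genes changed by 1 on the log2 scale were recovered, with 2.82% false calls. The simulation gave each gene independent normal noise and fixed the groups beforehand. In these data genes vary together and the groups were made from the same libraries, so those rates may not hold here.

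Depth was recovered from the steps between low values of short transcripts. Between 68.0% and 76.3% of low values fell within 0.12 of a whole read, against 24% by chance, a share too low to turn the values into counts for a count test. Insert size was compared with 100000 permutations. Nothing in the labels says that the tumours came from separate litters, so p-values are set against the spread among the animals in each fit. They do not account for the grouping by a score from the same libraries. Named genes were the 12 in each direction with the smallest adjusted p outside the lists, any member of the macrophage, CSF axis, chemokine, MHC class II and EGF lists, and in other lists the most abundant member and those at either end. Called members of other lists, and genes named for groups that did not overlap or under an alternative, were chosen after their values were seen, and a few genes that this rule names are not reported here. Alternatives changed the pseudocount, the filter, the scaling, the group size, the score genes, covariates and the tumours included.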

Additional observations from a re-analysis of the deposited data

Results flagged for a closer look

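In 25 of 212 tests of a gene within a group of 10 tumours, the highest or the lowest tumour stood apart on the log2(RPKM + 1) scale, meaning that its gap to the next tumour took a larger share of the group's range than Dixon's critical value at the 95% level. Chance flags about 1 in 20 groups, a rate that does not apply to the score genes, which ranked the tumours.

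The macrophage-poor tumour of animal 4378 stood apart as the highest of its group for Marco (gap 0.946 of the range, at 3.61 RPKM), Cd79a (0.646, at 36.2 RPKM), Irf8 (0.633), Ccl2 (0.584), Folr2 (0.544), Lyve1 (0.531), Cd84 (0.517), Csf2rb (0.504) and Csf2rb2 (0.491). Without this tumour 255 genes were higher in the macrophage-rich group and 19 were lower.

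Among the macrophage-rich tumours, that of animal 4142 stood highest for Marco (0.723, at 36.2 RPKM), Cd79a (0.667, at 23.1 RPKM), Lck (0.527, at 21.8 RPKM) and Ccl4 (0.479). Marco, a scavenger receptor of macrophages in the marginal zone of lymphoid tissue, was listed under 2 RPKM in each of the other macrophage-rich tumours.

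The tumour of animal 4036, first by score, stood highest in the macrophage-rich group for Col1a1 (0.642, at 1718 RPKM), Pdgfra (0.594), Adgre1 (0.588) and Trem2 (0.558), and lowest for Krt19 (0.689, at 65.9 RPKM) and Birc5 (0.480, at 23.5 RPKM). In the macrophage-poor group the tumour of animal 4150, last by score, stood lowest for C3ar1 (0.675), Mpeg1 (0.623), Adgre1 (0.621) and Csf1r (0.468). Adgre1 and Csf1r are score genes that helped to rank these tumours, so their flags are a description only. Also in that group, animal 4262 stood highest for Cfd (0.474, at 187 RPKM) and animal 4438 for Mertk (0.499, at 8.71 RPKM), a receptor for dying cells.

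No gene's difference between the groups depended on the depth class of the library at an adjusted p under 0.05 (limma interaction term, 0 genes, smallest adjusted p 0.60), and 362 genes had an unadjusted p under 0.05.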

How the results depend on the processing

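The numbers of genes higher and lower in the macrophage-rich tumours, 125 and 3, stayed within 1.5 times with a pseudocount of 0.1 (134 and 3), with depth class as a covariate (114 and 2) and with summed transcripts (136 and 3). They became 32 and 1 at a mean of at least 5 RPKM, 35 and 1 with no filter, 49 and 1 with quantile normalization, 6 and 0 with insert size as a covariate, and 0 and 0 with the stroma or the adipocyte score as a covariate. Within deep libraries they were 0 and 0 and within shallow ones 4 and 0. With 8 tumours a group they were 99 and 1, with 15 a group 4 and 0, and with the continuous score 1340 and 1186. A score without Csf1r gave 39 and 4, without Mrc1 21 and 0, without Cd163 226 and 26, without Lyz2 69 and 2, and without Cd14 384 and 43. Without Adgre1 the score picked the same tumours, so its 125 and 3 only repeat the main fit. Leaving out 1 tumour gave 6 to 255 higher and 0 to 19 lower. The 0 and 0 genes of the middle tumours were again 0 and 0 at a mean of at least 5 RPKM. Alternatives chosen after seeing the data gave 5 and 0 without the highest and the lowest tumour, 0 and 0 without the 4 of highest adipocyte score, and, for the continuous score, 595 and 133 without the highest and the lowest, 492 and 268 with the adipocyte score, and 9 and 2 with the stroma score. The filter at a mean of at least 5 RPKM left 9875 genes to test, among them 58 of the 125 higher genes. The cause of these shifts was not tested, and fewer tumours enter several of these fits.

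Fcgr2b passed in 40 of 45 alternatives, P2ry6 in 38 of 44 and C1qb in 28 of 45. The alternatives include the score without Adgre1, which repeats the main fit. Several other called genes also passed in most, among them Cd300ld and Nxpe5 in 37 of 44 each, Fcgr3 in 37 of 45, Clec10a in 33 of 45 and Bdh1 in 28 of 45. Some called genes passed in a minority, among them Trem2 in 14 of 45, Ccl8, Gne and Kat2a in 12 of 45 each, Cxcl16 in 11 of 45 and Lyve1 in 10 of 44. Over the 100 named genes, 34 of 4468 values changed sign, all of genes that did not pass. With the adipocyte score as a covariate these were Acta1 (-0.68), Csf1 (-0.10), Csf2ra (-0.041), Csf3 (0.15) and Marco (-0.38). With the stroma score they were Col1a1 (-0.44), itself part of that score, Egfr (-0.10), Npm1 (0.056) and Spp1 (-0.044). For the continuous score with the adipocyte score they were Acta1 (-0.13), Csf1 (-0.0052), Fabp4 (-0.020) and Marco (-0.21), and with the stroma score Birc5 (0.038), Col1a1 (-0.31), Csf2ra (-0.048), Egfr (-0.26), Lck (0.019) and Spp1 (-0.15). Without the highest and the lowest tumour the continuous slope turned for Cd79a (0.0092) and Egfr (-0.033). A score without Cd14 turned Aif1 (0.078), Cd79a (0.30), Spp1 (-0.16) and Tnf (0.014), and one without Cd163 turned Cd79a (0.042) and Csf2ra (-0.0039). Within deep libraries Acta1 (-1.615), Il1b (-0.24) and Spp1 (-0.16) turned, and within shallow ones Csf1 (-0.042). Leaving out 1 tumour moved Cd79a between -0.39 and 0.20, the latter without animal 4378, and Csf1 (-0.00256) and Marco (-0.16) turned without the 4 tumours of highest adipocyte score.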

Other observations

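Some called genes belong to groups for which no list had been drawn up, and the following were picked after their values were seen. C1ra and C1s1, the proteases that C1q activates, had medians of 7.78 and 10.47 RPKM in the macrophage-rich tumours and of 4.30 and 5.30 RPKM in the macrophage-poor ones (differences in log2(RPKM + 1) of 1.13 ± 0.26 and 1.16 ± 0.25, adjusted p = 0.041 and 0.033, limma). The receptors for the cleaved complement fragments rose too. C3ar1 rose by 0.49 ± 0.11, with no overlap between the groups, and C5ar1 by 0.62 ± 0.13 (adjusted p = 0.033 and 0.031). Vegfd, a growth factor for lymphatic vessels, had medians of 2.08 and 1.18 RPKM (0.80 ± 0.16, adjusted p = 0.031).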
